A study of Caenorhabditis elegans with 16 samples.

Results

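The lysosomal lipases encoded by the lipl genes were examined in whole-worm RNA-seq of Caenorhabditis elegans, in which a light-gated ion channel was used to contract body wall muscle repeatedly. The genes were chosen by symbol: lipl-1, lipl-2, lipl-3, lipl-4, lipl-5 and lipl-7, which are 6 of the 46904 genes in the expression table. Of these, 5 passed the filter on low counts and were tested, and lipl-4 did not. The family members lipl-6 and lipl-8 are not among the 6.

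All worms carried the transgene myo-3p::ChR2(C128S;H134R)-FLAG, made by bombardment of unc-119(ed4) worms with an unc-119(+) rescue. The myo-3 promoter places the channel in body wall muscle, and the channel needs the cofactor all-trans retinal (ATR) to function. Worms were grown from the L1 stage at 18 °C on OP50 bacteria with 0.1 mM ATR or with no ATR. As young adults they were given 5 s pulses of 455 nm blue light with 20 min of darkness after each over 8 h (light), or were kept dark for the same time (dark). The full treatment is called light+ATR here. Its 3 controls are light-ATR (pulses but no ATR), dark+ATR (ATR but no pulses) and dark-ATR (neither), and each of the 4 conditions has 4 libraries, 16 in all. The study states that the libraries of a condition are independent biological replicates. Each library was made from poly(A) RNA of a pooled population, from which worms with vulval rupture had been washed away. The study reports this rupture, with loss of eggs and germline tissue, for worms given both ATR and pulses. The removal therefore bears mainly on light+ATR, whose libraries come from the worms left intact.

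Lysosomal acid lipases cut triglycerides and cholesteryl esters that reach the lysosome, in part from lipid droplets delivered by autophagy (lipophagy). The lipl genes are the worm's relatives of human lysosomal acid lipase. In worms, lipl-1, lipl-2, lipl-3 and lipl-5 are known for their induction by fasting, where HLH-30, the worm homolog of TFEB, activates lipase genes and MXL-3 represses them in fed animals. LIPL-4 acts in the intestine and is known from long-lived worms that lack a germline, where it signals through the lipid chaperone LBP-8 to the nuclear receptors NHR-49 and NHR-80.

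The libraries held 19264315 to 32374024 gene counts. ERCC spike-in sequences made up 0.722% to 0.953% of the counts. Markers of every tissue examined were detected, and none of the 10 marker lists held a gene without any count in all 16 libraries. Levels are given as CPM, counts scaled to a common library size by the TMM method, differences as log2 fold changes with their standard error (SE) or 95% interval, and a gene was called where its adjusted p was under 0.05. In whole worms, fewer cells of a type and less RNA per cell cannot be told apart. The comparisons that involve light+ATR share the same 4 treated libraries.

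The members lie on chromosomes V and IV of the WBcel235 build. On chromosome V, lipl-1 (WBGene00010062) lies at 12919986 to 12921692, lipl-2 (WBGene00009773) at 9791567 to 9793241 and lipl-4 (WBGene00019376) at 6550171 to 6552186, all on the plus strand. Also on V, lipl-5 (WBGene00022642) lies at 385746 to 387740 on the plus strand and lipl-3 (WBGene00020016) at 521595 to 524218 on the minus strand. The sixth member, lipl-7 (WBGene00008510), lies on chromosome IV at 10239278 to 10241823 on the minus strand. All are protein-coding, with 5 to 7 exons and a coding length of 1209 to 1233 nt. Exon positions of lipl-3 are shared with srw-107 on the same strand, so that reads could be divided between them, and its counts are uncertain for this reason. K04A8.15 and another gene outside the family overlap lipl-4 on the opposite strand, and the libraries were stranded.

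The 6 lipases were expressed at very different levels, with lipl-5 far above the others. Per kilobase of exon and averaged over the 16 libraries, lipl-5 stood at 155 CPM per kilobase (145 to 170 over libraries). It was followed by lipl-7 at 10.4 (8.02 to 13.1), lipl-1 at 4.82 (3.00 to 7.57) and lipl-2 at 2.38 (1.42 to 3.75). The lowest were lipl-3 at 0.732 (0.251 to 1.19) and lipl-4 at 0.0376 (0 to 0.0900). Of neighbours in this order, only lipl-1 and lipl-2 had overlapping ranges over libraries, and within each library lipl-1 was above lipl-2. Thus lipl-5 was 14.8-fold above lipl-7 and 212-fold above lipl-3 in mean level per kilobase. It supplied 86.6% to 90.7% of the summed CPM of the 6 genes in every library. The order was the same per kilobase of coding length.

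**Figure D1:**
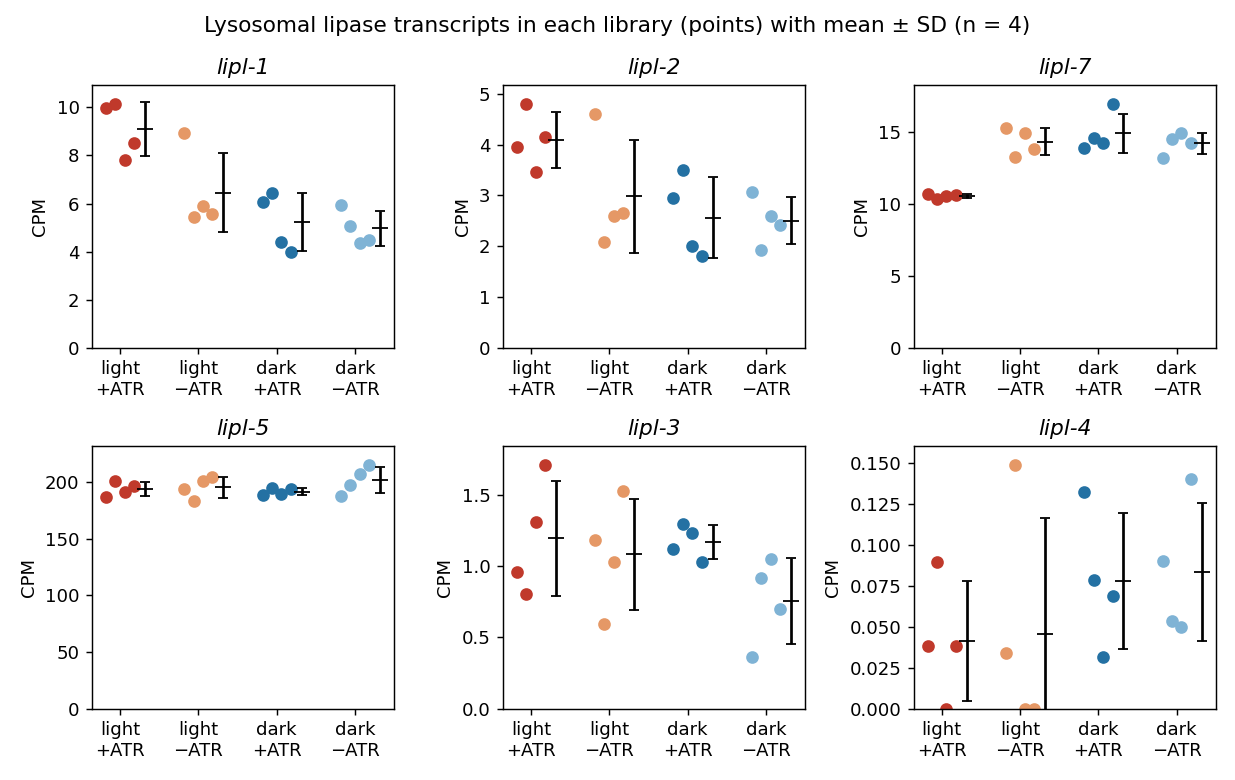
CPM of each lipl gene (y axis, from 0, with its own scale per gene) in the 4 conditions (x axis), with 1 point per library and the mean ± SD of 4 libraries beside the points. The 4 light+ATR libraries lie highest for lipl-1 apart from 1 light-ATR library at 8.93 CPM, lie below all 12 controls for lipl-7, and overlap the controls for lipl-5 and lipl-3.

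The clearest change was a fall of lipl-7 in light+ATR. The 4 libraries of light+ATR held 10.7, 10.4, 10.55 and 10.7 CPM of lipl-7. In light-ATR the values were 15.3, 13.3, 14.9 and 13.9 CPM, in dark+ATR 13.9, 14.6, 14.3 and 16.9 CPM, and in dark-ATR 13.2, 14.5, 14.98 and 14.2 CPM. All 4 treated libraries lay below all 12 controls, as they did for 6.29% of the genes tested. The treated group was at 10.6 ± 0.135 CPM (SD, n = 4). The controls were at 14.3 ± 0.929 CPM in light-ATR, 14.9 ± 1.37 CPM in dark+ATR and 14.2 ± 0.745 CPM in dark-ATR (SD, n = 4 each). A difference in spread between conditions was not tested.

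Against light-ATR, which asks what the cofactor adds under light, lipl-7 fell by 0.44 on the log2 scale (SE 0.0738, adjusted p = 0.000181). It was the only one of the 5 tested members called in this comparison, in which 16.3% of all genes were called in either direction, 8.39% higher and 7.9% lower. Against dark+ATR, which asks what light adds in worms given the cofactor, lipl-7 fell by 0.50 (SE 0.0729, adjusted p = 3.49e-05). Against dark-ATR it fell by 0.43 (SE 0.0740, adjusted p = 0.000167). The 3 differences correspond to levels of 0.736, 0.709 and 0.743 times those of the controls.

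Among the controls themselves lipl-7 was not called. Light alone, in light-ATR against dark-ATR, changed it by 0.01 (95% interval -0.14 to 0.17), and ATR alone in the dark by 0.07 (95% interval -0.08 to 0.22). The interaction of light and ATR, which asks whether the effect of ATR differs with light, was -0.51 for lipl-7 (SE 0.103, adjusted p = 0.00303). It was the only member called for the interaction, for which 5.23% of all genes were called, 2.58% with a positive and 2.65% with a negative estimate. The other 4 tested members had interaction estimates from -0.50 for lipl-3 to 0.41 for lipl-2, with intervals that included 0. The call for lipl-7 was kept in these 4 comparisons under every alternative run, each library left out in turn included.

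The summed CPM of 19 intestinal markers moved opposite to lipl-7. It was 5901 to 6227 CPM in light+ATR, 4847 to 5135 in light-ATR, 4761 to 4951 in dark+ATR and 4965 to 5356 in dark-ATR. Of the 18 intestinal markers tested, 5 were higher and 4 lower in light+ATR than in light-ATR. Over all genes tested, 8.39% were called higher and 7.9% lower there, which is the background for each marker count in this paragraph. Over the 16 libraries the correlation of lipl-7 with this sum was r = -0.866, and over the 12 controls it was r = -0.006. Markers of some other tissues also ran opposite to lipl-7 over the 16 libraries: body wall muscle (r = -0.821, and -0.108 over the 12 controls), with 9 of 15 genes called higher than in light-ATR, neurons (-0.832 and 0.328), with 2 of 14 higher, and pharynx (-0.684 and 0.231), with 7 of 12 higher. Summed body wall muscle markers were at 7415 to 7769 CPM in light+ATR and 5967 to 7137 CPM in light-ATR. Vitellogenins, the yolk proteins made by the intestine, were lower with lipl-7, at 27940 to 33650 CPM in light+ATR and 40450 to 50370 CPM in light-ATR, with 6 of 6 genes called lower. Sperm markers ran opposite to lipl-7 (r = -0.692, and -0.228 over the 12 controls). The remaining lists ran with lipl-7 over the 16 libraries: vitellogenins (0.835, and -0.077 over the 12 controls), germline and oocyte (0.73 and -0.058), early embryo (0.65 and 0.135), hypodermis (0.502 and -0.418) and coelomocytes (0.208 and -0.053). The part of these tissue markers, or of the removal of ruptured worms, in the fall of lipl-7 was not tested.

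The genes whose pattern over the 16 libraries was most like that of lipl-7 included that of a gut enzyme. The 5 with the highest correlation among 10972 protein-coding genes were F37H8.5 (r = 0.944), ZK105.1 (0.942), ges-1 (0.941), F58G6.7 (0.938) and C52D10.3 (0.926). Of these, ges-1 encodes a gut esterase and is on the intestinal marker list above. It was at 18.6 to 19.3 CPM in light+ATR and 23.1 to 25.7 CPM in the controls. The sum of that list went the other way, and of its 18 tested genes 5 were called higher and 4 lower than in light-ATR. All 5 had lower estimates in light+ATR than in light-ATR, and the likeness rests on that group: within the 12 controls the correlations were 0.259 to 0.600. The libraries of a condition share their treatment, so these values describe shared patterns over 16 libraries and carry no test.

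The fasting-induced pair lipl-1 and lipl-2 was higher in light+ATR than in both dark groups. For lipl-1 the light+ATR libraries held 9.95, 10.1, 7.82 and 8.51 CPM. The light-ATR libraries held 8.93, 5.45, 5.89 and 5.56 CPM, the dark+ATR libraries 6.08, 6.45, 4.41 and 4.00 CPM, and the dark-ATR libraries 5.96, 5.05, 4.34 and 4.50 CPM. Every treated library was thus above every dark library (as for 15.4% of all genes against dark+ATR and 17.9% against dark-ATR), and 1 light-ATR library, replicate 1, lay inside the treated range.

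In light+ATR lipl-1 was 0.80 higher on the log2 scale than in dark+ATR (SE 0.171, adjusted p = 0.00223), a level 1.74 times as high. It was 0.87 higher than in dark-ATR (SE 0.175, adjusted p = 0.000861), a level 1.83 times as high. Against light-ATR the difference of 0.48 (95% interval 0.12 to 0.84) was not called (adjusted p = 0.0617). It was called under DESeq2 (adjusted p = 0.042), library totals (adjusted p = 0.0339) and the replicate number as a block (adjusted p = 0.00392). Without replicate 1 of light-ATR it was 0.69 (adjusted p = 0.00479) and without replicate 2 of light-ATR 0.41 (adjusted p = 0.181), and 7 of the 8 fits with 1 library left out made no call.

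For lipl-2 the light+ATR libraries held 3.94, 4.79, 3.47 and 4.14 CPM. The light-ATR libraries held 4.60, 2.08, 2.59 and 2.65 CPM, the dark+ATR libraries 2.94, 3.50, 2.00 and 1.81 CPM, and the dark-ATR libraries 3.07, 1.94, 2.60 and 2.42 CPM. The same light-ATR library, replicate 1, was again high, and replicate 2 of dark+ATR reached just above the lowest treated library.

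On the log2 scale lipl-2 was 0.68 higher in light+ATR than in dark+ATR (SE 0.228, adjusted p = 0.0338) and 0.70 higher than in dark-ATR (SE 0.233, adjusted p = 0.0254). Against light-ATR the difference of 0.43 (95% interval -0.05 to 0.91) was not called (adjusted p = 0.211). Without replicate 1 of light-ATR it was 0.74 (adjusted p = 0.0227) and without replicate 2 of light-ATR 0.295 (adjusted p = 0.466), and 7 of the 8 fits with 1 library left out made no call. With 36 to 136 counts per library, the calls for lipl-2 were not firm. The call against dark+ATR was lost without light+ATR replicate 1 (adjusted p = 0.0548), 2 (0.0913) or 4 (0.0695) and without dark+ATR replicate 3 (0.101) or 4 (0.109). The call against dark-ATR was lost without light+ATR replicate 2 (0.0697) or 4 (0.0512) and without dark-ATR replicate 2 (0.0786) or 4 (0.0597).

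Of the 5 tested members, 2 were thus called higher and 1 lower both against dark+ATR, where 27.7% of all genes were called (16.2% higher and 11.6% lower), and against dark-ATR, where 36.9% were called (20.4% higher and 16.5% lower). Against light-ATR the count rose from 1 to 3 members without replicate 1 of that group. The split of called genes into higher and lower over the whole table depended on the scaling. It was 1262 higher and 1188 lower against light-ATR, with 2057 and 598 under library totals and 935 and 399 under ERCC scaling. Against dark+ATR it was 2431 and 1738, with 3378 and 715 under library totals and 1677 and 635 under ERCC scaling, and against dark-ATR 3068 and 2478, with 4095 and 908 and with 3841 and 396. For the interaction it was 388 and 399, with 589 and 284 and with 124 and 296. Under each of these scalings lipl-7 was called lower in all 4 of these contrasts.

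In light-ATR against dark-ATR no member was called and 0.0% of all genes were called by edgeR, with 2012 genes at an unadjusted p under 0.05 and 180 called by DESeq2. There lipl-1 had an estimate of 0.39 (95% interval 0.02 to 0.77, adjusted p = 0.346) and lipl-2 of 0.27 (95% interval -0.23 to 0.77). Without replicate 1 of light-ATR these were 0.185 (adjusted p = 0.723) and -0.0413. In dark+ATR against dark-ATR no member was called either, with 0.0665% of all genes called, 1179 at an unadjusted p under 0.05 and 23 called by DESeq2. There the estimates were 0.07 for lipl-1 (95% interval -0.30 to 0.45) and 0.02 for lipl-2 (95% interval -0.48 to 0.52).

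**Figure D2:**
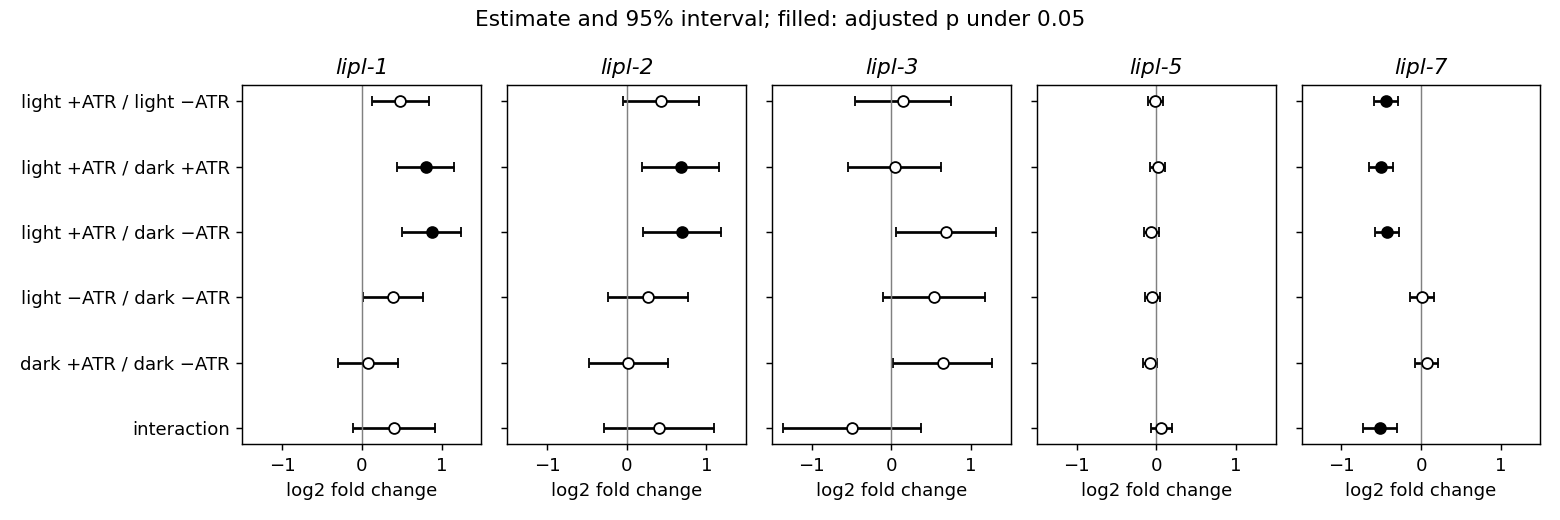
Log2 fold change (x axis) of the 5 tested lipl genes, 1 panel each, in the 5 comparisons and the interaction of light and ATR (y axis), with 95% intervals from edgeR. Filled circles have an adjusted p under 0.05: they lie below 0 for lipl-7 in the 3 comparisons with light+ATR and the interaction, and above 0 for lipl-1 and lipl-2 against both dark groups. The intervals of lipl-5 are narrow and all include 0.

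The transcripts of lipl-1 and lipl-2 varied together from library to library. Over the 16 libraries their log2 CPM values correlated with r = 0.915 (Spearman 0.921), and each was among the 5 genes most like the other. Over the 12 controls r was 0.865, and it was 0.742 when replicate 1 of light-ATR was also left out. Deviations from the condition means correlated with r = 0.873 over 16 libraries. Both genes are measured in the same libraries, so the values share depth and composition. No other pair of the 5 tested members had a correlation over 0.21 across the 16 libraries, and lipl-7 ran opposite to lipl-1 (r = -0.751) and lipl-2 (r = -0.629). Over the 12 controls these were -0.2 and -0.102, and -0.566 and -0.385 without replicate 1 of light-ATR.

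The summed levels of several marker lists, sperm among them, varied with this pair. The summed CPM of 14 sperm markers was 344 to 542 in light+ATR, 270 to 377 in light-ATR, 219 to 314 in dark+ATR and 203 to 270 in dark-ATR. With this sum lipl-1 correlated with r = 0.787 over the 16 libraries and 0.746 over the 12 controls, and lipl-2 with 0.724 and 0.601. Of the 13 sperm markers tested, 12 were called higher in light+ATR than in dark+ATR (median difference 0.71 on the log2 scale), 12 than in dark-ATR (0.89) and 1 than in light-ATR (0.38). In the same way lipl-1 ran opposite to germline and oocyte markers (r = -0.812 over 16 libraries and -0.666 over 12 controls), whose summed CPM was 10680 to 11360 in light+ATR and 11560 to 12620 in the controls. Of 17 germline and oocyte markers tested, 1 was higher and 7 lower against dark+ATR, 1 and 8 against dark-ATR, and 1 and 0 against light-ATR. The background for these sperm and germline counts is the share over all genes tested. It was 16.2% higher and 11.6% lower against dark+ATR, 20.4% and 16.5% against dark-ATR, and 8.39% and 7.9% against light-ATR. Vitellogenins ran opposite to lipl-1 (r = -0.827 over 16 libraries and -0.647 over 12 controls) and to lipl-2 (-0.698 and -0.393). Early embryo markers also ran opposite to lipl-1 (-0.717 and -0.601) and to lipl-2 (-0.699 and -0.58). Neuron markers correlated with lipl-1 at 0.694 over 16 libraries and -0.039 over 12 controls. The remaining lists lay between -0.518 and 0.584 for lipl-1 over 16 libraries. The part of sperm, germline or other tissue content, or of the removal of ruptured worms, in the higher lipl-1 and lipl-2 values was not tested.

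The other genes most like lipl-1 were math-38 (r = 0.922), spe-26 (0.905), F32B4.2 (0.9) and F36H12.5 (0.898), of which spe-26 encodes a kelch-repeat protein needed to form sperm. Those most like lipl-2 besides lipl-1 were C05C12.5 (r = 0.894), K08F4.5 (0.883), C18E9.8 (0.875) and Y47D3A.13 (0.873). Their correlations within the 12 controls were 0.787 to 0.882. These genes were picked over the 16 libraries, which include the 12 controls and replicate 1 of light-ATR, so the control values are no separate support.

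**Figure D3:**
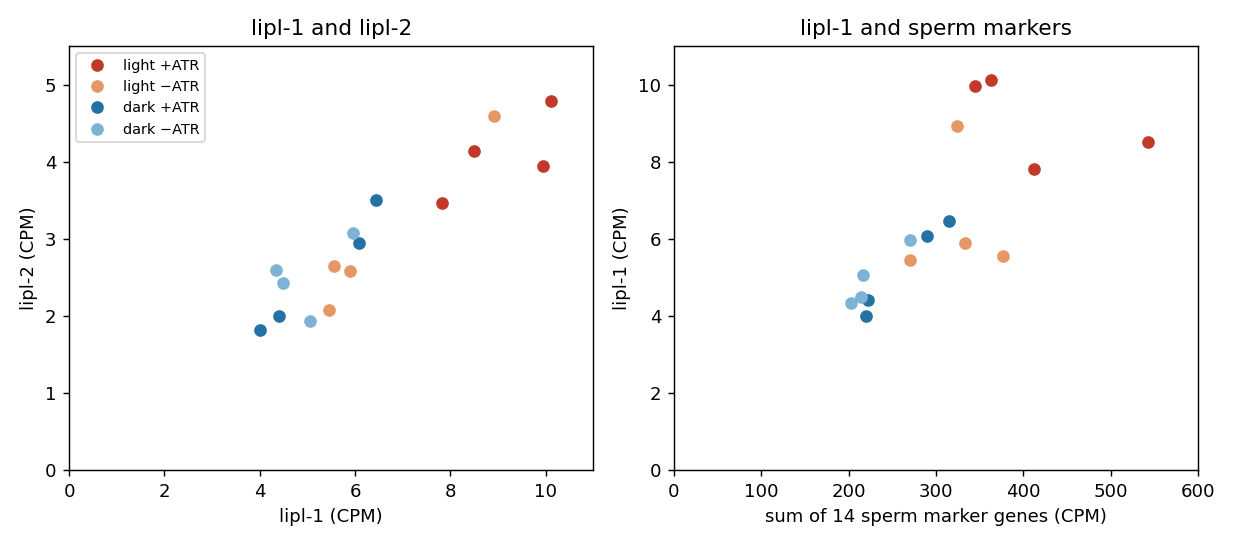
Left, CPM of lipl-2 (y axis) against CPM of lipl-1 (x axis), and right, CPM of lipl-1 (y axis) against the summed CPM of 14 sperm marker genes (x axis), with 1 point per library coloured by condition. The points rise together in both panels (r = 0.915 on the left and 0.787 on the right, on log2 values), the 4 light+ATR libraries lie towards the upper end, and 1 light-ATR library at 8.93 CPM of lipl-1 lies among them.

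The abundant lipase lipl-5, also known as fasting-induced, was not called in any comparison. It held 186, 201, 191 and 196 CPM in light+ATR, 194, 183, 201 and 204 CPM in light-ATR, 188, 195, 189 and 194 CPM in dark+ATR, and 188, 197, 207 and 215 CPM in dark-ATR. The groups overlapped throughout. With 3671 to 6114 counts per library the intervals were narrow: the difference of light+ATR from light-ATR was -0.01 (95% interval -0.10 to 0.08), from dark+ATR 0.02 (-0.07 to 0.11) and from dark-ATR -0.06 (-0.15 to 0.03). The sign of the first and last of these depended on the scaling, and that of the middle one turned without light+ATR replicate 2. The summed CPM of all 6 members was likewise 212 to 227 in light+ATR and 205 to 237 over the controls.

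Genes most like lipl-5 were cup-14 and impt-1 (r = 0.797 each), zig-11 (0.78), C05D2.8 (0.769) and lec-9 (0.76). One of these, cup-14, is on the list of markers of coelomocytes, the worm's scavenger cells, of which 0 of 6 tested were called between light+ATR and light-ATR. With the intestinal marker sum lipl-5 correlated with r = 0.854 over the 12 controls and 0.145 over the 16 libraries. The intestinal sum was higher in light+ATR, while lipl-5 was not called there. Of the 18 markers tested, 5 were called higher and 4 lower than in light-ATR, so the sum does not stand for every intestinal gene. The relation of lipl-5 to intestinal content was not tested.

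The remaining 2 members were expressed at low levels. For lipl-3 the light+ATR libraries held 0.957, 0.806, 1.31 and 1.71 CPM, the light-ATR libraries 1.18, 0.595, 1.03 and 1.53 CPM, the dark+ATR libraries 1.12, 1.298, 1.24 and 1.03 CPM, and the dark-ATR libraries 0.361, 0.914, 1.05 and 0.702 CPM. These were 8 to 45 counts per library, and dark-ATR had the lowest library and the lowest mean. The estimate for lipl-3 was 0.15 against light-ATR (95% interval -0.45 to 0.74), 0.04 against dark+ATR (-0.54 to 0.62) and 0.68 against dark-ATR (0.05 to 1.31, adjusted p = 0.0832). The last passed the threshold without light+ATR replicate 2 (0.82, adjusted p = 0.0475) or without dark-ATR replicate 3 (0.88, adjusted p = 0.0446), and was smaller without dark-ATR replicate 1 (0.44, adjusted p = 0.258) or light+ATR replicate 4 (0.46, adjusted p = 0.282). In dark+ATR against dark-ATR the estimate was 0.64 (95% interval 0.02 to 1.27, adjusted p = 0.628). Its most similar genes were Y9C2UA.1 (r = 0.867), nhr-21 (0.86), C35A5.6 (0.826), dve-1 (0.825) and rig-1 (0.818), and none of these differed from light-ATR by more than 0.20 in estimate.

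The intestinal lipl-4 was close to the limit of detection. It had 0 to 4 counts per library and 25 counts in all, of which 4 were in light+ATR, 4 in light-ATR, 9 in dark+ATR and 8 in dark-ATR. In 3 libraries it had no count, which allows up to 0.116 CPM in light+ATR replicate 3, 0.134 CPM in light-ATR replicate 3 and 0.153 CPM in light-ATR replicate 4, counting error alone considered. A difference between conditions was not detectable for lipl-4 at this depth.

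Among 18 listed partners and regulators of lysosomal lipases, 0 were called in light+ATR against light-ATR, with a median difference of -0.01 on the log2 scale. Over all genes tested the median was 0.01 and 16.3% were called, which is the background for this and the lists that follow. The activator hlh-30 was at 98.9, 100.5, 98.6 and 97.9 CPM in light+ATR. It was at 76.4 to 95.3 CPM in light-ATR, 73.8 to 86.6 CPM in dark+ATR and 74.5 to 92.2 CPM in dark-ATR. All treated libraries lay above all 12 controls, as they did for 7.35% of the genes tested. Its difference was 0.21 from light-ATR (SE 0.0725, adjusted p = 0.0523), 0.30 from dark+ATR (adjusted p = 0.00512) and 0.30 from dark-ATR (adjusted p = 0.00429). The first was called without light-ATR replicate 3 (adjusted p = 0.0417) or 4 (0.0148), and the adjusted p was 0.0121 to 0.179 over the alternatives. The repressor mxl-3 varied widely within groups, at 11.8 to 23.9 CPM in light+ATR and 16.5 to 42.03 CPM in the controls, and was not called (-0.23 from light-ATR, adjusted p = 0.617).

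The lipid chaperone gene lbp-8, whose product acts with LIPL-4, was high in 1 control group. It had 24, 26, 27 and 25 counts in dark+ATR and 1 to 9 counts in each of the other 12 libraries. This gave 0.793 to 1.02 CPM in dark+ATR, 0.266 to 0.306 CPM in light+ATR, 0.169 to 0.312 CPM in light-ATR and 0.0499 to 0.323 CPM in dark-ATR. The gene passed the filter on low counts only through dark+ATR, the group where it was high. Its adjusted p-values are therefore no support for a difference. In dark+ATR it was 1.96 higher on the log2 scale than in dark-ATR (SE 0.326, adjusted p = 0.0118), and in light+ATR it was lower than in dark+ATR, with a difference of -1.64 (adjusted p = 0.000474). The first was not called without dark-ATR replicate 1 (adjusted p = 0.0739), nor with only the compared groups in the fit (adjusted p = 0.107). Light+ATR did not differ detectably from light-ATR (0.27, adjusted p = 0.679), and the interaction of -1.69 was not called (adjusted p = 0.0615). The receptors downstream, nhr-49 (0.02, adjusted p = 0.839) and nhr-80 (0.15, adjusted p = 0.257), were not called against light-ATR. The FOXO factor daf-16 was not called there (0.15, adjusted p = 0.0751) and was 0.26 higher than in dark-ATR (adjusted p = 0.00114).

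Of 15 genes tested from a list of other intracellular and fasting lipases, 2 were higher and 1 lower in light+ATR than in light-ATR, with a median of -0.00 over the list (3 and 0 under library totals, 2 and 0 under ERCC scaling). The fatty acid amide hydrolase gene faah-1 was higher by 0.32 (adjusted p = 0.000101) and the fasting-induced lipase gene fil-1 by 0.74 (adjusted p = 0.0165), at 2.34 to 2.81 CPM against 1.16 to 1.93 CPM. The lipid droplet coat gene plin-1 fell by 0.13 (adjusted p = 0.0415), a call that was lost without the filter, with only the compared groups, under library totals and ERCC scaling, and in 7 of 8 fits with 1 library left out. The adipose triglyceride lipase gene atgl-1 (0.08, adjusted p = 0.241) and the hormone-sensitive lipase gene hosl-1 (-0.00, adjusted p = 0.993) were not called.

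Genes of the fasting response moved both ways. Of 20 tested, 5 were higher and 6 lower in light+ATR than in light-ATR, with a median of -0.03. The list was not split by the direction each gene takes in fasting, so these counts give no direction of a fasting response. Those with the smallest p all fell: the gluconeogenic genes pck-1 by 1.04 (adjusted p = 1.33e-07) and fbp-1 by 0.35 (adjusted p = 2.29e-06), the desaturase gene fat-7 by 0.73 (adjusted p = 1.02e-06) and the acyl-CoA dehydrogenase gene acdh-1 by 0.55 (adjusted p = 3.28e-06). The 5 that rose, named after their values were seen, were fil-1 and the genes ech-9 (an enoyl-CoA hydratase, 2.10), cpt-3 and cpt-4 (carnitine palmitoyltransferases, 1.90 and 1.36) and fmo-2 (a flavin monooxygenase, 0.83). Pck-1 was at 39.6 to 56.8 CPM in light+ATR and at 94.5 to 112 CPM in the controls.

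Other lysosomal hydrolase genes were called in both directions. Of 37 tested, 16 were higher and 7 lower in light+ATR than in light-ATR, and their median was 0.21. The glucocerebrosidase genes gba-4 and gba-1 rose by 0.76 (adjusted p = 1.94e-10) and 0.93 (adjusted p = 1.35e-09), the acid ceramidase gene asah-1 by 0.80 (adjusted p = 3.76e-10) and the cathepsin B-like cpr-1 by 0.97 (adjusted p = 1.09e-09). Cpr-1 was at 903 to 1001 CPM in light+ATR and at 424 to 549 CPM in the controls. Of this list, asp-1, cpr-6 and pho-1 are also on the intestinal list. Of 41 genes of lysosome structure and acidification, 7 were higher and 3 lower, with a median of 0.03 (15 and 1 under library totals, 6 and 1 under ERCC scaling). They included cln-3.1 (1.02, adjusted p = 5.99e-08) and cln-3.3 (0.67, adjusted p = 0.000186), homologs of the human Batten disease gene, and vha-6, an intestinal subunit of the proton pump (0.22, adjusted p = 0.000368), while heh-1, a homolog of NPC2, fell by 0.31 (adjusted p = 0.00198).

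Of 30 genes listed under peroxisomal and mitochondrial fatty acid oxidation, 2 were higher and 11 lower, with a median of -0.07 (3 and 7 under library totals). The list was not split by the substrate of each enzyme, so these counts do not speak to fatty acids released by lipases in particular. The acyl-CoA synthetase gene acs-1 fell by 0.54 (adjusted p = 3.13e-09), ech-6 by 0.55 (adjusted p = 2.93e-08) and the thiolase gene kat-1 by 0.42 (adjusted p = 1.18e-06). Acdh-1, which is also on the fasting list, fell as given above. Called genes of these 6 lists in the comparisons among controls were 0 in light-ATR against dark-ATR, and in dark+ATR against dark-ATR only lbp-8. That gene is on 2 of the lists and passed the filter only through dark+ATR.

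**Figure D4:**
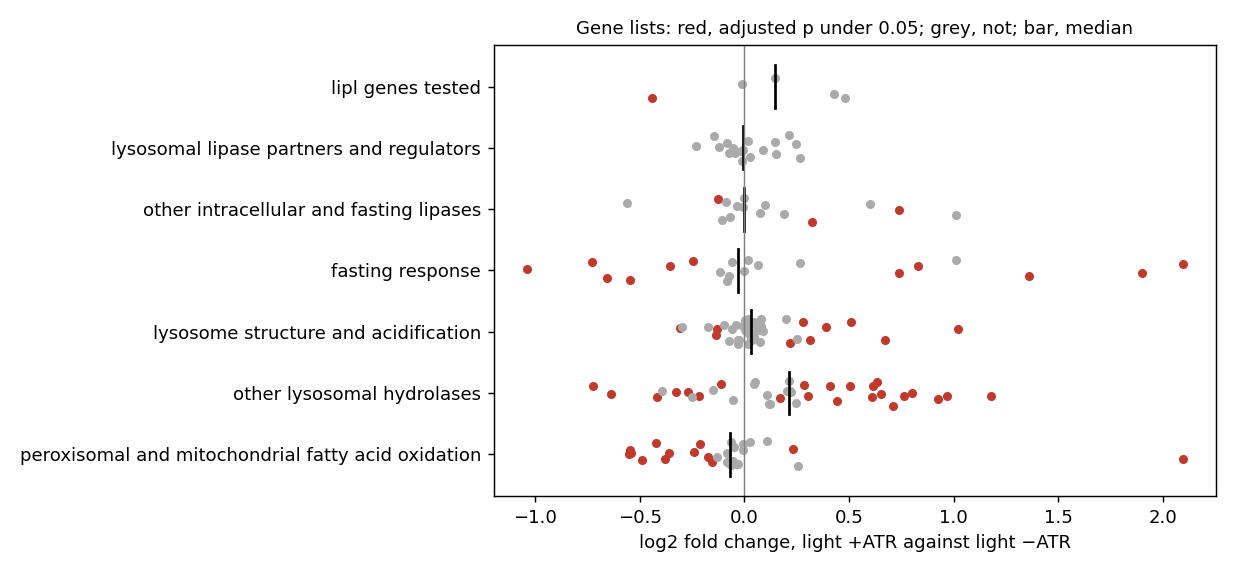
Log2 fold change in light+ATR against light-ATR (x axis) of the 5 tested lipl genes and of the genes of 6 lists (y axis), with 1 point per gene, red where the adjusted p was under 0.05 and grey otherwise, and a bar at each list's median. The regulators hold no red point, the fasting genes hold red points on both sides, the other hydrolases lie mostly to the right (16 higher and 7 lower) and the fatty acid oxidation genes mostly to the left (2 higher and 11 lower).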

How the data were processed

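Whole-worm poly(A) RNA was sequenced in 16 stranded libraries of 4 conditions, with ERCC spike-ins. The authors aligned reads with STAR and deposited estimated counts per gene from salmon (nf-core RNA-seq pipeline 3.0, genome build WBcel235, Ensembl 103), without normalization, and the submitters' processing notes also name R 4.0.3 and DESeq2 1.30.1. The deposited counts cover 46904 genes and 92 ERCC sequences, and a combined table named for TPM holds the same counts and was not used. Between 3.2% and 3.8% of values were not whole, and all were rounded. Positions came from Ensembl 115 on the same build, which matched 46817 genes. No sequence is shown.

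In R 4.3.3, edgeR 4.0.16 filtered genes (filterByExpr, 15044 kept), scaled by TMM and tested 6 contrasts with a robust quasi-likelihood F test over all 16 libraries, with Benjamini-Hochberg adjustment over all genes and a threshold of 0.05. The fit was tested on simulated data. Correlations used log2 CPM with a prior count of 2 over libraries, carry no test, and for the most similar genes were taken over protein-coding genes with a mean of at least 1. Intervals and floors (3 counts) cover counting or fitted error only.

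The members and gene lists were chosen with earlier results of these data known. Named genes were all members, the hlh-30, mxl-3, lbp-8, nhr-49, nhr-80 and daf-16 regulators, up to 4 genes of each list called in light+ATR against light-ATR with the smallest p, and the 5 genes most like each member. Any other gene was chosen for naming with its value in view. Alternatives were DESeq2 1.42.0, RLE size factors, library totals, ERCC scaling, no filter, the replicate number as a block, only the compared groups, and each library left out. For the lists, hlh-30 and lbp-8 these were added after the data were seen.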

Additional observations from a re-analysis of the deposited data

Results flagged for a closer look

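One of 24 sets of 4 libraries (6 members in 4 conditions) held a library far from the rest of its condition: replicate 1 of light-ATR had 8.93 CPM of lipl-1, with the other 3 at 5.45 to 5.89 CPM, a gap of 0.874 of the group's whole range. Chance alone flags about 1 in 20 such sets. The same library was the highest of its condition for lipl-2, at 4.60 CPM.

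The effect of ATR on lipl-7 differed with light, with an interaction of -0.51 on the log2 scale (edgeR adjusted p = 0.00303). With light the effect was -0.44 and in the dark 0.07, and all 4 light+ATR libraries were below all 12 controls.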

How the results depend on the processing

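Of 8 called differences of lipl genes, 118 of 127 alternative values kept direction and call, 9 kept direction only (all for lipl-2 with 1 library left out) and 0 reversed. Of 22 that were not called, 325 of 358 were the same, 8 passed the threshold and 25 changed sign. The number of lipl genes called in light+ATR against light-ATR rose from 1 to 2 under DESeq2 (lipl-1, adjusted p = 0.042), library totals (0.0339) and the replicate block (0.00392), and was 1 to 3 with 1 library left out. Leaving out 1 library gave 2 to 3 against dark+ATR and 2 to 4 against dark-ATR. The difference of lipl-3 from dark-ATR was called under ERCC scaling (0.83, adjusted p = 0.0356). The estimate of lipl-5 changed sign under library totals (0.0584 from light-ATR, 0.0311 from dark-ATR) and ERCC scaling (0.032 and 0.0976, light-ATR from dark-ATR 0.0656, dark+ATR from dark-ATR 0.0762, interaction -0.0442). ERCC scaling moved the median of all genes to 0.154 in dark+ATR, 0.111 in light-ATR and 0.16 in light+ATR, each against dark-ATR. With 1 library left out, estimates that crossed 0 ranged, from light-ATR, over -0.0772 to 0.336 (lipl-3) and -0.0425 to 0.00874 (lipl-5). From dark+ATR they ranged over -0.184 to 0.18 (lipl-3) and -0.00233 to 0.0345 (lipl-5). For light-ATR against dark-ATR the ranges were -0.0413 to 0.402 (lipl-2) and -0.0271 to 0.049 (lipl-7), and for dark+ATR against dark-ATR -0.0373 to 0.181 (lipl-1) and -0.158 to 0.152 (lipl-2). Per kilobase of coding length lipl-5 stood at 161.7 CPM. The causes were not tested.

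Genes called overall were 1334, 2312 and 420 under ERCC scaling in light+ATR against light-ATR, against dark+ATR and for the interaction, where the main counts were 2450, 4169 and 787. Without light-ATR replicate 2 the first was 1633. For light-ATR against dark-ATR the count of 0 became 180 under DESeq2, 2 under library totals, 3 under ERCC scaling, 4 without the filter and up to 45 with 1 library left out. For dark+ATR against dark-ATR the count of 10 became 23 under DESeq2 and 5 to 10 with 1 library left out. Of the regulators, 1 was called against light-ATR under DESeq2, 3 under library totals, 3 under the replicate block and 1 with only the compared groups, and 0 to 1 with 1 library left out. Called other lipases were 1 to 4 with 1 library left out (1 without light-ATR replicate 3). Genes of lysosome structure called numbered 16 under library totals. The difference of hlh-30 from dark+ATR was not called under ERCC scaling (adjusted p = 0.0631), and that from light-ATR was called under DESeq2 (0.0364), library totals (0.0121), the replicate block (0.0144) and only the compared groups (0.0399).

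The replicate numbers were not treated as pairing the libraries: 6 of 24 same-numbered pairs across conditions had deviations correlated over 0.1 (-0.177 to 0.189), as did 15 of 72 differently numbered pairs, while 9 of 16 libraries correlated best with their own number, a hint from the data of a shared component. The replicate block changed the counts of called genes to 2791, 4506, 5822, 0, 9 and 1062. Depth limits lipl-3, lipl-4 and lbp-8 most.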

Other observations

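A second lipase family was looked at after its values were seen. The lips genes, which encode lipase-like proteins, number 16 in the table, and 12 were tested. In light+ATR against light-ATR, 2 were higher and 1 lower, against dark+ATR 3 were higher and 0 lower, and against dark-ATR 3 were higher and 1 lower, and none was called between the controls. Over all genes 16.3%, 27.7% and 36.9% were called in these comparisons. The highest estimate was that of lips-11, at 5.67 to 9.49 CPM in light+ATR, 2.13 to 3.21 CPM in light-ATR, 2.41 to 3.80 CPM in dark+ATR and 2.00 to 4.07 CPM in dark-ATR. It was 1.42 higher on the log2 scale than in light-ATR (SE 0.208, edgeR adjusted p = 7.25e-05), with every treated library above every control, as for 7.35% of the genes tested. The most abundant of the family, lips-15, was at 89.5 to 100.3 CPM in light+ATR and 73.8 to 85.0 CPM in the controls (0.23, adjusted p = 0.000799). The gene called lower was lips-14, at 0.0448 to 0.346 CPM in light+ATR and 0.338 to 0.714 CPM in light-ATR (-1.303, adjusted p = 0.0286). These were 1 to 9 counts per library in light+ATR and 7 to 16 in light-ATR. It passed the filter on low counts only through the controls, where it was higher. Its adjusted p-values are therefore no support for a difference.

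Of the 2 lipl genes outside the 6, lipl-6 was at 0.230 to 0.787 CPM over the 16 libraries and was not called in any comparison (-0.56 from light-ATR, adjusted p = 0.258), and lipl-8 had 0 to 2 counts per library.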
